A study of Mus musculus with 9 samples.

Results

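The genes described here are 7 dual specificity phosphatases (Dusp1, Dusp2, Dusp4, Dusp5, Dusp6, Dusp10 and Dusp16) and 3 members of the Sprouty and SPRED family (Spry1, Spry2 and Spred1). They were chosen by symbol as inhibitors of growth factor and stress signalling, and each had a single probe set, so 10 of the 19938 genes tested are followed. Expression was measured on Affymetrix mouse gene arrays in low-density bone marrow (LDBM) cells of Balb/c mice, the light marrow fraction that holds blood progenitors. All groups came from pooled marrow and shared a first culture of 4 days in which stem cell factor (SCF) and FLT3 ligand, each at 100 ng/mL, expanded the progenitors. A group harvested at the end of it, before interleukin 5 (IL-5), was compared with groups given IL-5 for 4 days and for 10 days, with 3 arrays in each group.

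Mitogen-activated protein (MAP) kinases pass signals from cytokine and growth factor receptors to the nucleus, and they are active only while phosphorylated on a threonine and a tyrosine. Dual specificity phosphatases remove both phosphates. Sprouty and SPRED proteins act further upstream and dampen the activation of RAS and RAF, the steps that lead to the MAP kinase ERK. Many of these inhibitors are themselves induced by MAP kinase signalling and so work as feedback brakes; IL-5, which drives the growth and survival of eosinophils, is one of the cytokines that signals through RAS and ERK.

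Values are log2 signals, so that a difference of 1 is a 2-fold change, and means carry the SD of 3 arrays. The words rose and fell are kept for genes that passed an adjusted p of 0.05 (limma, Benjamini-Hochberg over all 19938 genes) together with a 2-fold limit. Signals of different probe sets were not compared with each other. By these criteria 5 of the 10 genes changed in at least 1 comparison: Dusp1 and Dusp5 rose, and Dusp2, Spry2 and Spred1 fell. The fall of Spred1 from day 4 to day 10 passed under every setting tried, that from before IL-5 did not. The share of all genes that changed in at least 1 comparison was not counted, and shares for each comparison are given below. The other 5, Dusp4, Dusp6, Dusp10, Dusp16 and Spry1, changed in none.

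Array medians lay between 5.67 and 5.75, and correlations across genes were 0.991 to 0.996 within groups against 0.927 to 0.969 between groups. The levels that follow are mean log2 signals over a marker list, as the lowest and highest array of each group. Eosinophil markers rose in 8 of 8 at both days, from 7.14-7.35 before IL-5 to 10.25-10.39 at day 4 and 12.36-12.40 at day 10. Macrophage and monocyte markers rose in 7 of 11 at day 4, and at day 10 6 rose and 3 fell, with levels of 7.34-7.45, 9.32-9.36 and a wider 8.32-9.34. Dendritic cell markers rose in 5 of 10 at day 4 and fell in 7 of 10 from day 4 to day 10, with levels of 6.85-6.94, 8.27-8.38 and 6.03 on each day 10 array. Neutrophil markers rose in 7 of 10 at day 4 and in 4 at day 10, with levels of 9.08-9.34, 10.58-10.67 and 9.93-10.40. B cell markers fell in 7 of 7 at both days, with levels of 8.42-8.51, 6.00-6.31 and 5.15-5.20, and erythroid markers in 8 of 8, with 8.05-8.16, 5.28-5.49 and 5.26-5.39. Progenitor markers fell in 4 of 8 at day 4, with Cd34 among them, and in 7 of 8 at day 10, with Cd34 and Kit among them, at levels of 9.14-9.19, 8.14-8.28 and 7.03-7.12. Mast cell and basophil markers fell in 2 of 9 at day 4 and in 6 of 9 at day 10, with levels of 8.31-8.39, 8.11-8.20 and 6.74-7.15. Of 9 T and NK cell markers 2 fell at day 4, and 2 rose and 3 fell at day 10, with levels of 5.69-5.73, 5.21-5.30 and 5.55-5.70. Markers of several cell types thus moved over the same days as the genes below, and their part in any result was not tested. In such mixed cultures fewer cells of a type cannot be told apart from less RNA per cell. Nor can IL-5 be told apart from time in culture or from any change in SCF and FLT3 ligand made with it. Both comparisons with the cells before IL-5 use the same 3 arrays of those cells.

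The promoters of Dusp1 and Dusp5 are shown because these were the 2 genes that rose, and that of Spry2 as an example of those that fell. The promoters of Dusp2 and Spred1, which also fell, are not printed. Each stretch lies before the start site and is given 5′ to 3′ on the strand of the gene, from RefSeq promoters of build GRCm38.p6. The Dusp1 stretch (chr17:26508573-26508672, minus strand) runs from 200 to 101 bases before the start, that of Dusp5 (chr19:53529025-53529124, plus strand) and that of Spry2 (chr14:105896840-105896939, minus strand) from 120 to 21 bases before it. The 3 stretches overlap no gene in the RefSeq gene table. Capitals mark a cAMP response element (CRE, TGACGTCA), the core of that element (TGACG, or CGTCA when read from the other strand) or a CArG box, the element bound by serum response factor.
Dusp1: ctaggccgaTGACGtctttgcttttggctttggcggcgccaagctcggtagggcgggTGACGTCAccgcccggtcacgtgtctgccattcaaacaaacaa
Dusp5: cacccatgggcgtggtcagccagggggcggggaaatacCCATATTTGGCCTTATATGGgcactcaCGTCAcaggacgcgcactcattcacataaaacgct
Spry2: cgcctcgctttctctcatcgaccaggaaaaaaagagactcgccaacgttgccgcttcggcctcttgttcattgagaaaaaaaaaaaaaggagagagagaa

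Promoters of 9 of the 10 genes were in the RefSeq table, and the 250 bases before the start were searched on both strands. The full CRE was found in Dusp1 alone, 143 to 136 bases before the start, against 1.55% of the 32851 promoters in the table. A second core lay 191 to 187 bases before the start of Dusp1. The CArG box was found in Dusp5 alone, where CCATATTTGG and CCTTATATGG lie end to end from 82 to 63 bases before the start, against 1.47% of all promoters with any CArG box. A CRE core, which is part of the full element, occurred in Dusp1, Dusp5 and Dusp16, or 3 of 9, against 17.8% of all promoters. The STAT element TTCNNNGAA (7.02% of all promoters), the AP-1 element TGANTCA (6.75%) and the TATA box TATAAA (12.4%) were matched in 0 of the 9 within these 250 bases. These are matches of letters only, and binding was not measured.

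**Figure D1:**
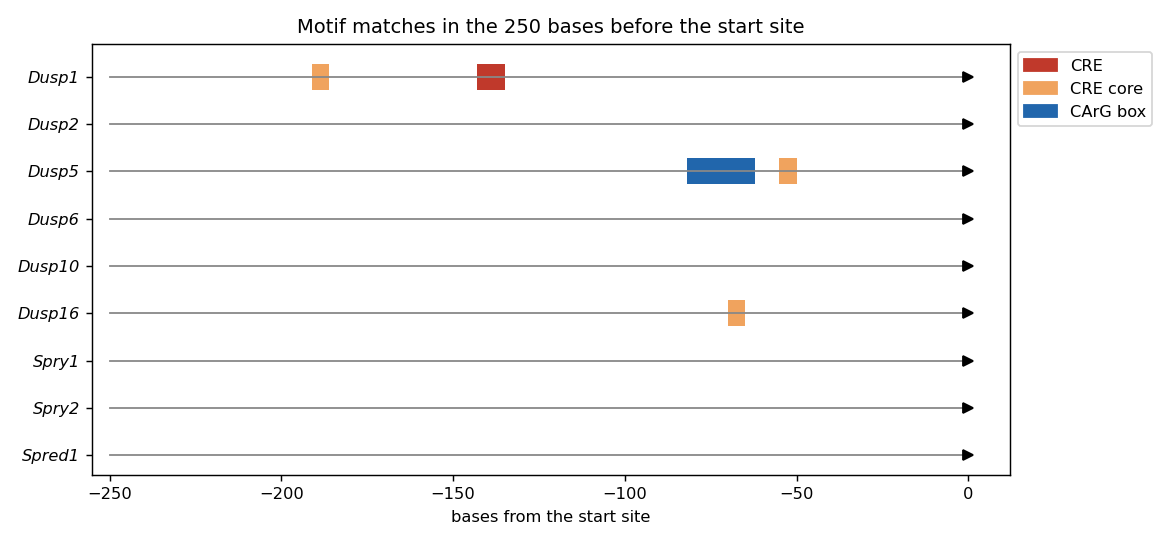
Matches of the CRE, its core and the CArG box in the 250 bases before the start site (arrowhead, position 0) of the 9 genes with a RefSeq promoter. The only full CRE is in Dusp1, the 2 adjoining CArG boxes are in Dusp5, and Dusp2, Dusp6, Dusp10, Spry1, Spry2 and Spred1 have none of the 3 motifs.

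Between the cells before IL-5 and day 4, 2 of the 10 genes rose, against 3.42% of all genes, and 0 fell, against 2.11% of all genes. The arrays of the 2 groups did not overlap for 9 of the 10, while this held for 43.6% of all genes. By adjusted p alone, with no limit on the fold, 4 of the 10 stood higher and 4 lower, where 31.5% of all genes passed in either direction. The median change of the 10 was -0.31, beside a median over all genes of -0.11 (-0.03 after quantile normalization). Between the cells before IL-5 and day 10, 2 rose (4.83% of all genes) and 3 fell (9.4% of all genes), with a median of -0.51 beside -0.07 over all genes, and 8 of 10 did not overlap (49.7% of all genes). Adjusted p alone was passed by 2 that stood higher and 6 that stood lower, and by 42.3% of all genes. Of all genes that changed at day 10, 34.0% were rises, or 45.5% after quantile normalization and 44.8% after subtraction of array medians. From day 4 to day 10, 0 rose (2.44% of all genes) and 2 fell (3.98% of all genes), with a median of -0.46 beside 0.02, and 6 of 10 did not overlap (44.2% of all genes). Adjusted p alone was passed by 1 that stood higher and 6 that stood lower, and by 31.9% of all genes.

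**Figure D2:**
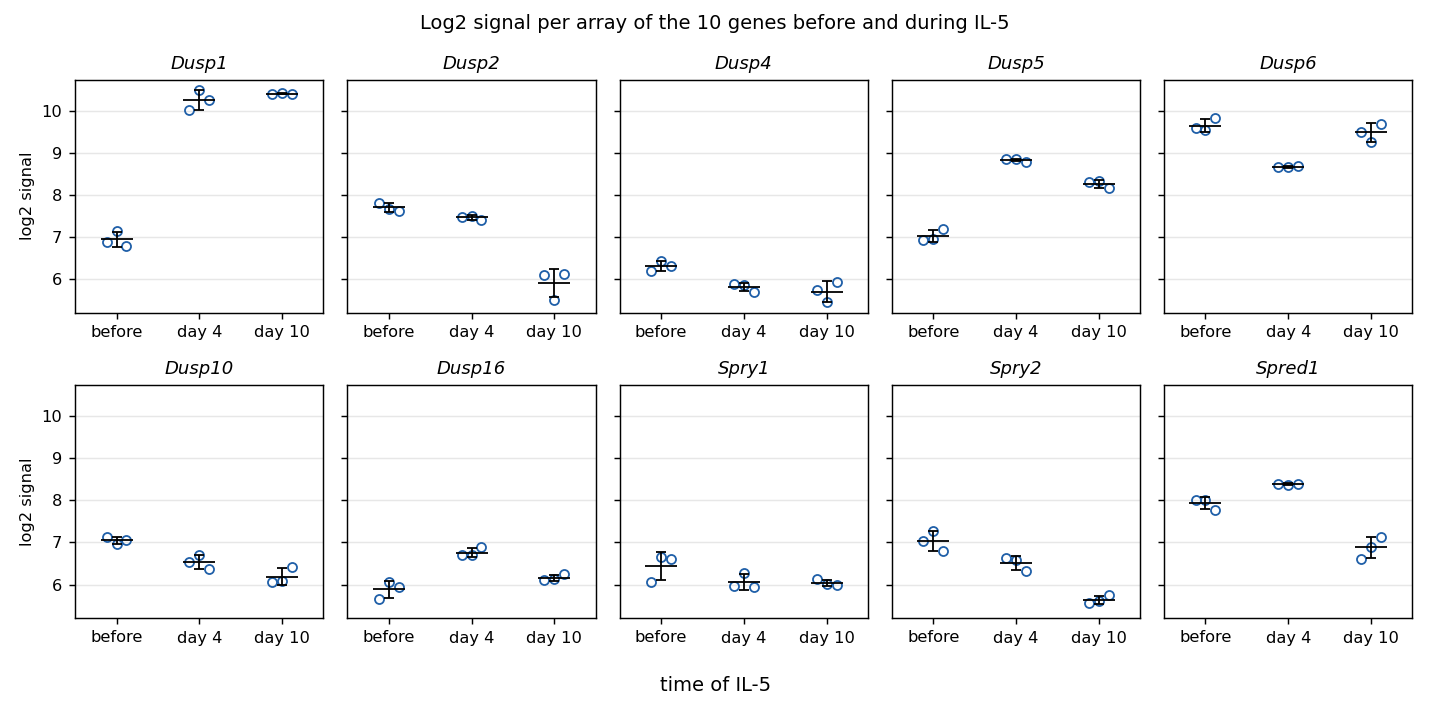
Log2 signal of each gene on each array (circles, 3 per group) before IL-5 and at day 4 and day 10 of IL-5, with the mean (bar) and SD (whiskers). Dusp1 lies between 6.80 and 7.15 before IL-5 and above 10 on all 6 later arrays, Dusp6 has its lowest values at day 4, and Dusp2, Spry2 and Spred1 have their lowest values at day 10.

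Dusp1 encodes MKP-1, a nuclear phosphatase of p38, JNK and ERK that is itself an immediate early gene product, and it had the largest change of the 10. Its log2 signal was 6.89, 7.15 and 6.80 before IL-5, 10.03, 10.49 and 10.25 at day 4, and 10.41, 10.42 and 10.41 at day 10. All 6 arrays with IL-5 were higher than all 3 before it, by at least 2.88, and the arrays of day 4 and day 10 overlapped. The mean rose from 6.95 ± 0.185 (SD, n = 3) by 3.31 (SE 0.129) at day 4, which is 9.94-fold (limma adjusted p = 3.86e-09). At day 10 it stood 3.47 (SE 0.129) above the cells before IL-5, or 11.1-fold (adjusted p = 4.15e-10). Between the 2 days the difference was 0.15, with a 95% confidence interval from -0.13 to 0.44 (adjusted p = 0.411). In the order of all genes by rise, Dusp1 was 19 at day 4 and 57 at day 10.

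Dusp5, a nuclear phosphatase specific for ERK, also rose at both days. Its log2 signal was 6.93, 6.95 and 7.20 before IL-5, 8.85, 8.86 and 8.80 at day 4, and 8.32, 8.33 and 8.17 at day 10. The 3 groups did not overlap in any pair, and the highest values were those of day 4. The mean rose from 7.03 ± 0.154 to 8.84 ± 0.0313 at day 4, by 1.81 (SE 0.105, adjusted p = 8.68e-08), and stood at 8.27 ± 0.0908 at day 10, a change of 1.25 from before IL-5 (adjusted p = 4.82e-07). From day 4 to day 10 it was lower by 1.48-fold, a log2 difference of -0.56 (95% interval -0.79 to -0.34, adjusted p = 0.000992), which did not reach 2-fold. Dusp1 and Dusp5 thus shared the rise by day 4, while the later difference was below 0 for Dusp5 and its interval held 0 for Dusp1. The mean signals of the eosinophil, neutrophil and macrophage and monocyte marker lists also stood higher at both days. At day 10, however, 3 of the 11 macrophage and monocyte markers fell. Of 10 neutrophil markers 4 rose at day 10, and 3 stood below the cells before IL-5 without passing. The part of these markers in the rises of Dusp1 and Dusp5 was not tested.

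Dusp2 encodes PAC-1, a nuclear phosphatase named for its induction in activated lymphocytes, and it fell late. Its log2 signal was 7.82, 7.68 and 7.62 before IL-5, 7.47, 7.51 and 7.41 at day 4, and 6.10, 5.52 and 6.12 at day 10. All day 10 arrays were lower than all others, by at least 1.30, and replicate 2 was the lowest of them. The change at day 4 was -0.24 (95% interval -0.56 to 0.07, adjusted p = 0.241). At day 10 the change was -1.80 from before IL-5 (SE 0.145, adjusted p = 3.51e-07) and -1.55 from day 4 (adjusted p = 3.54e-06), or 3.47-fold and 2.94-fold lower. The same day 10 replicate 2 also had the lowest mean of the macrophage and monocyte markers, 8.32 against 8.57 and 9.34. The arrays with means of 8.57 and 9.34 had nearly equal Dusp2 signals, 6.10 and 6.12. The part of these markers in the Dusp2 signals was not tested. Leaving out each array in turn, or any of the other settings tried, kept the fall from before IL-5 between -1.90 and -1.59.

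Dusp6 encodes MKP-3, the cytoplasmic phosphatase of ERK and a common readout of ERK activity, and its lowest values were those of day 4. Its log2 signal was 9.59, 9.54 and 9.83 before IL-5, 8.67, 8.66 and 8.70 at day 4, and 9.49, 9.27 and 9.70 at day 10. All 3 day 4 arrays were below all 6 others, and the day 10 arrays overlapped those before IL-5. The day 4 difference was -0.98 (SE 0.122, 95% interval -1.24 to -0.72, adjusted p = 4.69e-05), a 1.97-fold difference just inside the 2-fold limit. With 1 array before IL-5 left out it was -1.01 without replicate 1 and -1.04 without replicate 2, which passed, and -0.89 without replicate 3, which did not. Day 10 stood 0.82 above day 4 (95% interval 0.55 to 1.08, adjusted p = 0.000191), again short of 2-fold, and -0.16 from the cells before IL-5 (95% interval -0.43 to 0.10, adjusted p = 0.319). Dusp6 was thus lowest at day 4, the time at which Dusp5, the other gene here whose product is specific for ERK, was highest.

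Dusp4, Dusp10 and Dusp16 did not reach a 2-fold change in any comparison. Dusp4, which encodes the nuclear MKP-2, had log2 signals of 6.21 to 6.44 before IL-5, 5.70 to 5.90 at day 4 and 5.46 to 5.94 at day 10, with differences of -0.50 (adjusted p = 0.00861) and -0.61 (adjusted p = 0.00143) from before IL-5. Both IL-5 groups of Dusp4 lay below all arrays before IL-5 and overlapped each other. Dusp10 encodes MKP-5, a phosphatase of p38 and JNK, and its mean was lowest at day 10: its signals were 6.96 to 7.14, 6.38 to 6.70 and 6.07 to 6.42 in the order of time, with -0.51 at day 4 (adjusted p = 0.00686) and -0.86 at day 10 (adjusted p = 6.67e-05). Dusp16 encodes MKP-7, a phosphatase of JNK and p38, and its highest values were those of day 4, with 5.66 to 6.06, 6.70 to 6.88 and 6.11 to 6.25. Its day 4 arrays lay above all others, by 0.87 over the cells before IL-5 (95% interval 0.62 to 1.13, adjusted p = 8.51e-05), and day 10 was -0.59 from day 4 (adjusted p = 0.00154).

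Among the RAS inhibitors, Spry2 and Spred1 fell by day 10 and Spry1 did not pass. Spry2, a Sprouty protein induced by growth factor receptors, had log2 signals of 7.03, 7.28 and 6.80 before IL-5, 6.64, 6.58 and 6.31 at day 4, and 5.57, 5.61 and 5.75 at day 10. The 3 groups did not overlap and lay in the order of time, highest before IL-5. The difference was -0.53 at day 4 (95% interval -0.82 to -0.24, adjusted p = 0.0087) and reached -1.39 at day 10 (SE 0.134, adjusted p = 1.67e-06), a 2.63-fold fall. The later step from day 4 to day 10 was -0.87 (adjusted p = 0.000247).

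Spred1 encodes a membrane protein that brings the RAS inhibitor neurofibromin to the membrane. Its log2 signal was 8.01, 8.02 and 7.76 before IL-5, 8.38, 8.36 and 8.40 at day 4, and 6.61, 6.90 and 7.12 at day 10. All day 4 arrays were the highest and all day 10 arrays the lowest. The dendritic cell markers had that same order of the 3 times, and their part in it was not tested. Day 4 stood 0.45 above the cells before IL-5 (95% interval 0.17 to 0.73, adjusted p = 0.0174), and from there the change to day 10 was -1.50 (SE 0.129, adjusted p = 1.64e-06). Its fall from before IL-5 to day 10 was -1.05 (adjusted p = 1.52e-05), at the 2-fold limit, and it was -0.77 after quantile normalization, -0.92 after subtraction of array medians and -0.92 without day 10 replicate 1, none of which passed. Spry1 ranged from 6.06 to 6.66 before IL-5, 5.95 to 6.27 at day 4 and 5.99 to 6.12 at day 10. The groups of Spry1 overlapped in all 3 comparisons, with -0.37 at day 4 (95% interval -0.70 to -0.05, adjusted p = 0.0801) and -0.40 at day 10 (95% interval -0.73 to -0.07, adjusted p = 0.0494).

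**Figure D3:**
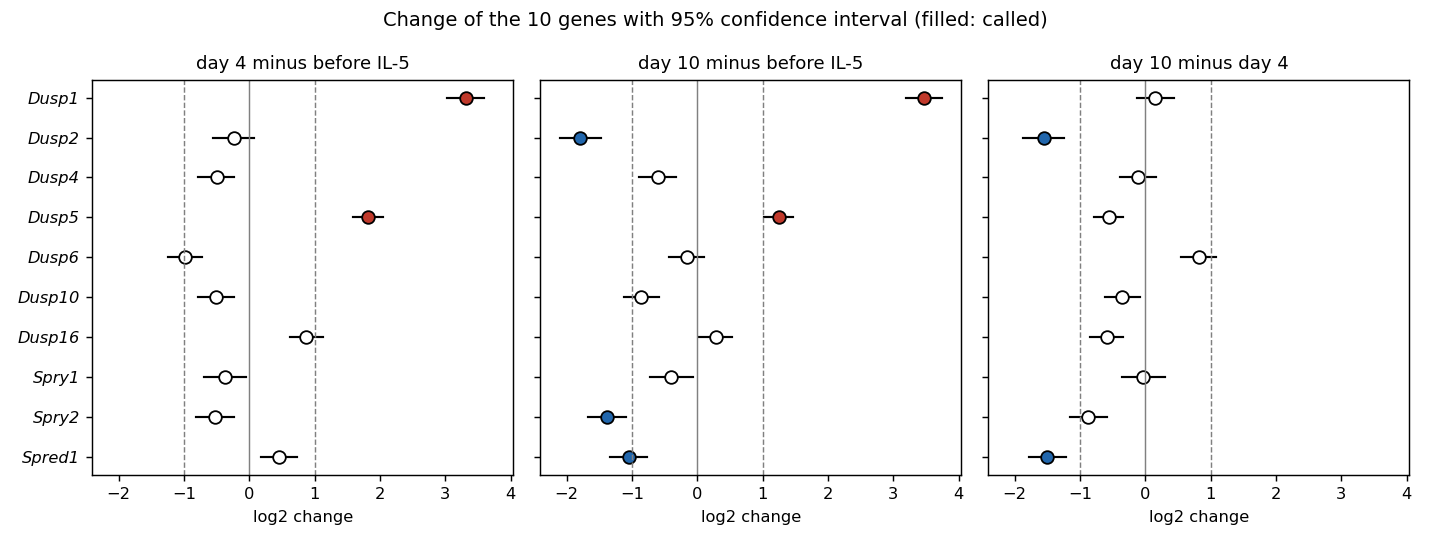
Log2 change of each gene (circle) with its 95% confidence interval (line) from the limma fit, in 3 comparisons. Red circles rose and blue circles fell, white circles did not pass, and dashed lines mark the 2-fold limits. Dusp1 and Dusp5 are the red circles at both days, and Dusp2 and Spred1 are blue in both day 10 panels. Dusp6 at day 4 (-0.98) lies just inside the limit.

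Genes with the most similar course were ranked, for the 5 genes that changed, by the root mean square difference over the 9 arrays after each gene was centred on its own mean. Nearest to Dusp1 were Prg2, which encodes eosinophil major basic protein (0.277), Tlr13, an endosomal receptor for bacterial RNA (0.296), and Bcl2a1c, a BCL2 family gene whose close copies may share probes (0.389). Nearest to Dusp5 were Rell1 (0.128), the adhesion molecule gene Ceacam1 (0.135) and the immediate early gene Ier5 (0.157). Dusp2 lay nearest to Bin1 (0.145), Mtss1 (0.161) and the adaptor gene Sh2b2 (0.174). Spry2 lay nearest to the noncoding RNA Gas5 (0.0934), the mitochondrial import receptor Tomm70a (0.0976) and the DNA replication clamp Pcna (0.0978). Spred1 lay nearest to the glycosyltransferase gene Mgat4a (0.0896), the ceramidase gene Acer3 (0.103) and Tnfsf13b, which encodes the B cell factor BAFF (0.118). Among the 10 genes themselves the closest pair was Dusp4 with Dusp10, at 0.173. The measure was not scaled by the size of the change, so genes with small changes lie close to each other. Dusp4 and Dusp10 did not pass in any comparison.

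The lists that follow can be read beside the medians and shares over all genes given above. Of 18 other phosphatases that act on MAP kinases or are related to the dual specificity family, 0 changed at day 4 and the median was -0.08. The largest day 4 difference was that of Dusp7 (-0.79), a cytoplasmic ERK phosphatase close to Dusp6. At day 10, 0 rose and 3 fell, with a median of -0.11: Dusp22 (-1.56, adjusted p = 2.07e-06), Dusp7 (-1.32, adjusted p = 2.37e-06) and the pseudophosphatase Styx (-1.22, adjusted p = 2e-06). The mean of the Styx probe sets gave -0.77, which did not pass. Dusp22 also fell from day 4 to day 10 (-1.67), with day 10 signals of 6.00, 6.16 and 6.63 below day 4 signals of 7.84 to 8.12. Of the 4 remaining Sprouty and SPRED genes, with medians of -0.11 at day 4 and -0.10 at day 10, only Spred2 fell at day 4 (-1.37, adjusted p = 4.98e-06), from 8.39 to 8.80 before IL-5 to 7.04 to 7.39. At day 10 Spred2 stood at -0.96 and did not pass, although it did without replicate 1 before IL-5 (-1.06) and reached the limit without day 10 replicate 2. Spry4 (-0.13 and -0.27 from before IL-5), Spry3 (-0.09 and 0.17) and Spred3 (0.04 and 0.06) did not pass. Spred1 and Spred2 thus stood on opposite sides of their starting level at day 4, at 0.45 and -1.37.

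Upstream of these inhibitors, 6 of 11 measured cytokine and growth factor receptor genes rose at day 4 and 1 fell, and at day 10, 3 rose and 4 fell, with medians of 1.01 and 0.27. Of the day 4 rises, that of Il7r (1.01) did not pass without replicate 1 (0.99) or without replicate 3 (0.97) before IL-5. Csf2rb2 (1.52) and Csf2rb (1.45), which encode signalling beta chains shared by or related to the IL-5 receptor, led the day 4 rises, and Epor (-1.42) fell. Csf2rb and Csf2rb2 are close copies, so each signal may hold part of the other. By day 10 the IL-5 receptor alpha chain Il5ra had risen by 4.27 and Csf2rb2 by 2.83, whereas the tyrosine kinase receptors Flt3 (-3.55) and Kit (-2.54) had fallen. At day 4 Kit (-0.26) and Flt3 (-0.09) had not passed, and both fell from day 4 to day 10 (-2.28 and -3.46). Dusp2 (-1.55) and Spred1 (-1.50) fell in that interval too. Spry2 was already at -0.53 at day 4, and its later step of -0.87 was short of 2-fold. The part of Kit and Flt3 in these changes was not tested.

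Of 20 RAS adaptors, exchange factors and GTPase activating proteins, 2 rose at day 4, Rasgrp4 (1.34) and Gab2 (1.06), and 0 fell, with a median of 0.16. Gab2 was at 0.99 without day 4 replicate 2. At day 10, 5 rose and 1 fell (3 rose without replicate 3 before IL-5, where Gab3 was at 0.97 and Rasa2 at the limit), with a median of 0.23. Rasgrp4, a RAS exchange factor of myeloid and mast cells, rose by 4.09 (adjusted p = 1.74e-11), from 7.11 to 7.33 before IL-5 to 11.20 to 11.44 at day 10. The adaptor Gab2 rose by 2.14 and the RAS GTPase activating protein Rasa3 by 1.15, and the exchange factor Rasgrp3 fell (-1.67). Nf1, whose product works with Spred1, stood at 0.26 and -0.20 and did not pass.

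Of 12 measured ERK cascade kinases and scaffolds, 1 rose and 1 fell at day 4, and 2 rose and 1 fell at day 10, with a median of 0.19 at each. The MAP kinase kinase kinase Map3k8 rose at day 4 (1.12, adjusted p = 0.000412) and fell again to day 10 (-1.31). The day 4 fall was that of Pebp1, the RAF kinase inhibitor protein (-1.04), which stood at -0.99 after quantile normalization or without replicate 2 before IL-5 and at -0.96 without day 4 replicate 3. By day 10 the scaffold Ksr1 had risen by 2.02 and Braf by 1.54, and Pebp1 had fallen (-1.72). Of 17 JNK, p38 and ERK5 cascade kinases 0 passed at day 4 and 1 at day 10, the JNK gene Mapk8 (-1.12), with medians of 0.07 and -0.10. Mapk8 stood at -0.99 without day 10 replicate 3 and after subtraction of array medians, and at -0.86 after quantile normalization. Quantile normalization also put Map3k3 (1.05) and Mapk13 (1.03) of this list past the limit at day 10.

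Of 20 transcripts known to respond to ERK signalling, 9 rose and 1 fell at day 4, with a median of 0.91. At day 10, relative to the same cells, 3 rose and 2 fell with a median of 0.17, and from day 4 to day 10, 0 rose and 6 fell with a median of -0.79. Fos, the AP-1 subunit gene, had signals of 5.98 to 6.28 before IL-5, 9.33 to 9.55 at day 4 and 7.12 to 7.65 at day 10. Its day 10 difference from day 4 was -2.06, that of Atf3 -1.82 and that of Nr4a1 -1.56. At day 10 Dusp1 was at 3.47 and Dusp5 at 1.25 above the cells before IL-5. The 3 genes of this list that rose at day 10 were Fos at 1.24, Btg2 at 1.34 and Mcl1 at 1.34, while Atf3 was at 0.56. The ETS factor gene Etv5, often read together with Dusp6 and Sprouty genes as a sign of ERK activity, stood at -0.62 at day 4 and -0.95 at day 10, and at day 10 it passed when replicate 1 before IL-5 (-1.02) or day 10 replicate 3 (-1.01) was left out. Ccnd1 (-2.75) and Myc (-2.22) fell by day 10. Zfp36, which encodes an mRNA decay factor, rose at day 4 (1.83) and was at 0.98 at day 10, or 1.15 after quantile normalization; Ier2 (0.98 at day 4 and 0.90 at day 10) likewise passed under that scaling, at 1.09 on both days, which made it 10 rises at day 4 and 5 at day 10. Mean levels of dendritic cell (8.27 to 8.38), neutrophil (10.58 to 10.67) and macrophage and monocyte markers (9.32 to 9.36) were highest at day 4 as well. Single markers differed from these means. From day 4 to day 10, 2 of 10 neutrophil markers rose and 5 fell. Of 11 macrophage and monocyte markers 1 rose and 3 fell, and of 10 dendritic cell markers 0 rose and 7 fell. For the macrophage and monocyte markers the day 10 arrays reached up to 9.34. The part of these markers in the day 4 rises was not tested.

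**Figure D4:**
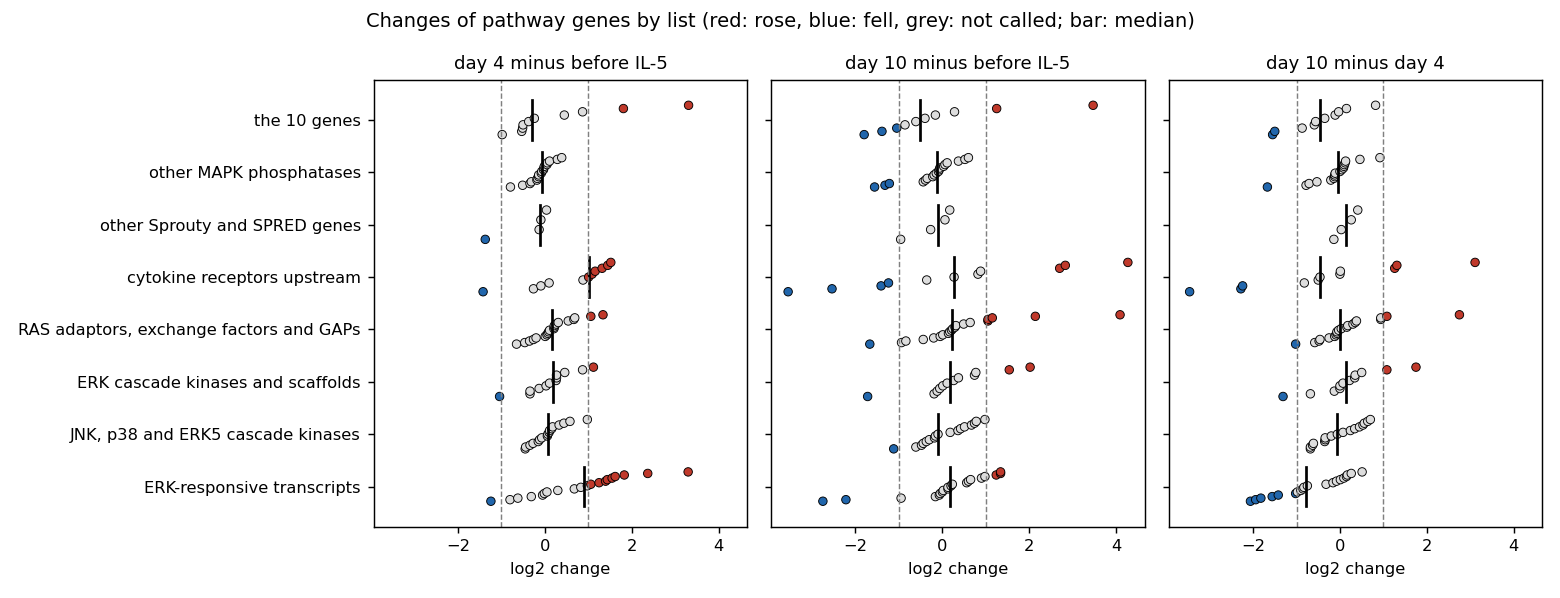
Log2 change of every measured gene in the 10 genes and in 7 pathway lists (points, spread vertically within a list in order of change) in 3 comparisons, with the list median as a bar and the 2-fold limits dashed. ERK-responsive transcripts hold 9 red points at day 4 and 6 blue points from day 4 to day 10, while the other MAP kinase phosphatases hold 0 coloured points at day 4 and 3 blue points at day 10.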

How the data were processed

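The authors deposited log2 signals per probe set for 9 arrays. Per the submitters' processing notes they used Affymetrix Expression Console 1.1.2637.26569, and per the labels' descriptions its default gene-level RMA summary; its further settings and the genome build are not given in the sources here. RMA compresses changes of dim genes and evens out array distributions. Of 35557 probe sets, 21789 named 1 gene, 1621 named several and 12147 none; for genes with several probe sets the brightest was kept, leaving 19938 genes. No detection call was used. Sample titles gave the groups and replicate numbers. No label says that arrays of a group were separate cultures, so p-values cover only the spread among these arrays, possibly a technical one, and the number of arrays limits precision.

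One model with 3 group means was fitted to the 9 arrays (limma 3.58.1, R 4.3.3, two-sided moderated test, Benjamini-Hochberg over 19938 genes). A check on simulated arrays used planted changes well above the 2-fold limit, so it does not cover calls near that limit. The members, 7 pathway lists (102 of 110 genes measured) and 9 marker lists (78 of 82) were chosen with earlier results of these data known. All members were named; from each list, called genes or the largest changes; and for each changed member the 3 genes nearest in course. Motifs were searched in RefSeq promoters of build GRCm38.p6. The alternatives were 2 scalings, a filter on dim genes, the mean of probe sets, 2 groups only, trended and robust variance, a replicate block, adjusted p alone and leaving out each array.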

Additional observations from a re-analysis of the deposited data

How the results depend on the processing

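Each result was recomputed under 17 alternatives, of which 9 left out 1 array each. Dusp1, Dusp5, Dusp2 and Spry2 kept the direction and call given above in every comparison under all alternatives, except that dropping the 2-fold limit also called Spry2 at day 4 and from day 4 to day 10 and Dusp5 from day 4 to day 10. Spred1 lost its fall from before IL-5 to day 10 as given above. With adjusted p alone, 4 of the 10 genes stood higher and 4 lower at day 4, 6 stood lower at day 10, and 1 stood higher and 6 lower from day 4 to day 10; of all genes 6279, 8440 and 6364 then passed, in place of 1102, 2839 and 1281, and of the pathway genes 49, 61 and 59, in place of 22, 25 and 19. Leaving out 1 array gave 0 to 1 falls among the 10 genes at day 4. Spry1 from day 4 to day 10 changed sign, from -0.03 to 0.12 after quantile normalization and 0.08 after subtraction of array medians, and ranged from -0.08 to 0.08 when 1 array was left out (0.08 without day 4 replicate 2, 0.00 without day 10 replicate 3). Dusp4 from day 4 to day 10, at -0.11, ranged from -0.22 to 0.02, the latter without day 10 replicate 2. Neither passed in any of these. The cause was not tested.

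With the replicate number of the titles as a block, Dusp1 stood at 3.31 at day 4 and 2 of the 10 genes rose; the block changed no call among the 10. Arrays with the same title number did not deviate together (correlations of -0.119 to 0.0773), and title numbers were not treated as pairs. The sample descriptions carry partly other numbers than the titles. Neither the block nor the correlations were run on those, so a pairing by them was not checked. Subtracting array medians moved the median of all genes from 0.02 to 0.13 between day 4 and day 10 and from -0.07 to 0.06 at day 10, and Spred1 at day 10 lost its call under it.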
